A study of Mus musculus with 8 samples.

Results

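Thyroid hormone activation and reception was followed through 7 genes in keratinocytes of mouse skin. They are the deiodinases Dio1, Dio2 and Dio3, the nuclear receptors Thra and Thrb, the membrane transporter Slc16a10 and the corepressor Ncor1. They were picked by symbol from the 24421 gene symbols in the deposited count tables, with results of the comparison between knockout and control already known. All values of the 7 genes between those groups are therefore given as a description, with no test read from them. All 7 symbols were found, and 5 passed the filter on low counts. Dio1 and Dio3 did not, and they are accounted for below.

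Bulk RNA sequencing gave 4 control and 4 knockout libraries from mice of strain CBA x C57Bl/6J. Controls were InvEE K5 Cre- HMGB1 fl/fl and knockouts InvEE K5 Cre+ HMGB1 fl/fl. All 8 libraries thus came from InvEE mice, in which the involucrin promoter drives an activated form of the kinase MEK1 in the upper layers of the epidermis, and all carried floxed Hmgb1, which encodes an abundant chromatin protein. K5-Cre is active in basal keratinocytes and so reaches their descendants. Cre was present in the knockouts and absent from the controls, so an effect of Cre and the loss of Hmgb1 cannot be told apart. The labels number the replicates without saying that each is a separate animal, and they give neither age nor sex, so p-values measure spread among libraries that may in part be technical.

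Thyroid hormone leaves the gland mostly as thyroxine, a precursor with weak affinity for its nuclear receptors. Inside a target cell, Dio2 removes an outer-ring iodine and makes triiodothyronine, the active hormone, Dio3 removes an inner-ring iodine and inactivates both forms, and Dio1 can do either. Triiodothyronine binds the receptors encoded by Thra and Thrb, which sit on DNA with a retinoid X receptor and hold corepressors such as NCoR1 when no hormone is bound. In skin the hormone is known to act on keratinocyte proliferation, on the hair cycle and on wound repair.

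Libraries held 30506676 to 34229030 counts on genes. Hmgb1 was at 565 to 615 CPM (counts brought to a common library size with TMM scaling) in controls and 113 to 126 CPM in knockout libraries, a log2 fold change of -2.32 (SE 0.09). Epidermal markers were abundant in every library, with the 11 listed keratinocyte markers summing to 50550 to 59080 CPM in control libraries and 59570 to 65960 CPM in knockout libraries. The 2 most abundant, Krt5 (mean 23780 CPM in control and 24200 CPM in knockout libraries) and Krt14 (17720 and 17430 CPM), were not called. Krt10, at 5092 CPM in control and 9018 CPM in knockout libraries, and Cdh1 were called higher among the 11. The part of this shift in the values of other genes was not tested. Y-linked transcripts were at 6110 to 6743 counts in control replicates 2 and 3 and knockout replicate 1. They were at 0 to 51 counts in the other 5 libraries, control replicates 1 and 4 and knockout replicates 2, 3 and 4. A fit on those 5 libraries has fewer libraries on both sides. Across 13016 tested genes, edgeR's quasi-likelihood test called 563 higher and 591 lower at an adjusted p under 0.05. Scaled by library totals alone, the split was 371 higher and 997 lower, and the median log2 fold change of all genes moved by -0.11.

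Of the 3 deiodinases, Dio2 was the form detected above the counting limit. The selenocysteine codons of the family are shown first, because the enzymes share this active site while their transcripts were at very different levels. Each window is from the GENCODE M21 transcript (GRCm38, the assembly of mm10), 5′ to 3′ on the coding strand, with the in-frame TGA that is read as selenocysteine in capitals and 30 coding bases on either side.
Dio1: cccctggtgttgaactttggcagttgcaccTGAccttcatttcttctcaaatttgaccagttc
Dio2: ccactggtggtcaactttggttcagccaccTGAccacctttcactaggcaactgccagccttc
Dio3: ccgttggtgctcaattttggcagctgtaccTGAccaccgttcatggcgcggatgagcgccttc
The codon is number 126 in Dio1 (chr4:107297700-107297702, minus strand), 130 in Dio2 (chr12:90729823-90729825, minus strand) and 170 in Dio3 (chr12:110279739-110279741, plus strand). Over these 63 bases Dio2 was identical to Dio3 at 41 positions and to Dio1 at 36. Dio2 has a second annotated selenocysteine codon, number 263, close to the end of its coding sequence.

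Dio1 (chr4:107291465-107307169) had 0 counts in all 8 libraries. Dio3 (chr12:110279068-110281097) had 1 count in control replicate 1 and 0 in the other 7. In each library 3 counts, the upper limit that a count of 0 allows, corresponded to 0.0837 to 0.107 CPM, and this limit covers counting error only. Dio1, the deiodinase of liver and kidney, was therefore not detectable at this depth, and the inactivating enzyme Dio3 rested on that single count. No fold change is given for either.

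Dio2 (chr12:90724552-90738438) was at 239.5, 105, 118 and 134 CPM in control replicates 1 to 4. In knockout replicates 1 to 4 it was at 41.3, 53.6, 34.4 and 45.1 CPM. Every knockout library lay below every control library, and control replicate 1 stood well above the other controls. The means were 149 ± 61.3 CPM in control libraries and 43.6 ± 7.98 CPM in knockout libraries (SD, n = 4 each), so 29.2% of the control level remained. The fitted log2 fold change was -1.77 (SE 0.26). Without control replicate 1 it was -1.45, so that library made the difference larger without setting its direction. The same library also had the largest share of reads outside genes, 21.75% against 15.7 to 20.4% in the others, and the part of this in its Dio2 level was not tested. In the 5 libraries without Y-linked transcripts the log2 fold change was -2.07. Control replicates 1 and 4 are the only controls in that fit, so the high replicate 1 weighs more there.

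**Figure D1:**
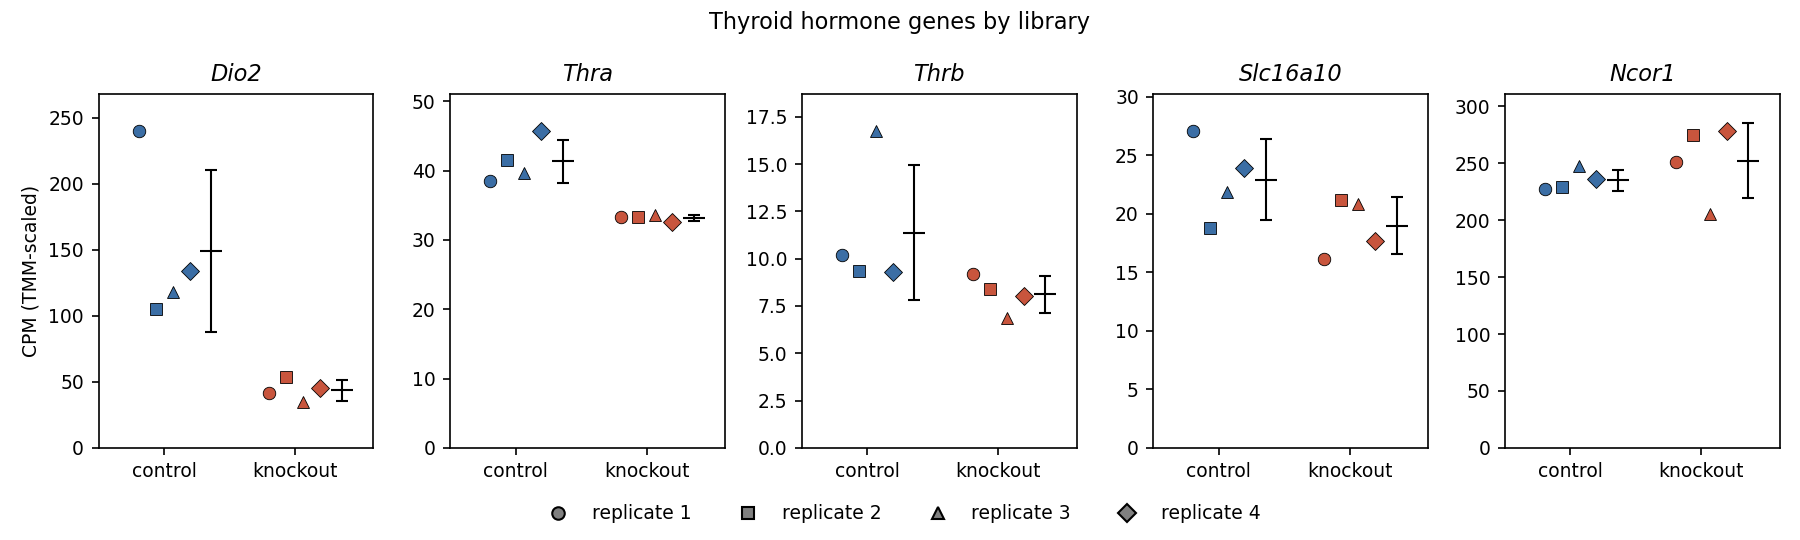
CPM (TMM-scaled, linear axis from 0) of the 5 thyroid hormone genes that passed the filter, by genotype; symbols mark replicates, and the bar beside each group is the mean ± SD (n = 4). For Dio2, Thra and Thrb all knockout libraries lie below all controls, while Slc16a10 and Ncor1 overlap.

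The 250 bases before the RefSeq start site of Dio2 (GRCm38.p6, chr12:90739039-90739288, minus strand, shown 5′ to 3′) are given because this gene had the largest difference of the 7. Capitals mark the only matches found for the cAMP response element TGACGTCA and for TATAAA.
Dio2 promoter: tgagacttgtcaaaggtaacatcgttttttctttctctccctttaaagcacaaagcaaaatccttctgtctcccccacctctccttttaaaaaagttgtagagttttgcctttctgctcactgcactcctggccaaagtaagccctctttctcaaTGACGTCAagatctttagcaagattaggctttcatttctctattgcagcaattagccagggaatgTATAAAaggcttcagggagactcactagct
The first of these letters lay at -95 and at -30 from that start site. Searching both strands of 32851 RefSeq promoter windows of the same length found the cAMP response element in 1.55% and the TATA letters in 12.4%. This window held no AGGTCA, the half-site that thyroid hormone receptors among others bind, and so no direct repeat of it. It also held no E box (CACGTG, in 6.02% of windows), no AP-1 letters (TGANTCA, in 6.75%) and no GLI letters (GACCACCCA, in 0.225%). The half-site of the cAMP element (TGACG, in 17.8% of windows) matched only inside the full element, on either strand. The receptor half-site was in 1 of the 2 Thrb windows, as it was in 14% of all windows. These matches describe letters and were not tied to any binding in these data. GENCODE places the start of Dio2 at 90738438, downstream of the RefSeq start.

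RNA of both receptor genes was present in every library. Thra (chr11:98740638-98769006, plus strand) was at 38.55, 41.5, 39.6 and 45.6 CPM in control replicates 1 to 4 and at 33.3, 33.35, 33.55 and 32.5 CPM in knockout replicates 1 to 4. The 4 knockout libraries were tightly grouped, and the highest of them, at 33.55 CPM, lay below the lowest control at 38.55 CPM. The means were 41.3 ± 3.12 and 33.2 ± 0.443 CPM (SD, n = 4 each), so 80.3% of the control level remained (log2 fold change -0.32, SE 0.08). Thrb (chr14:17660261-18038090) was at 10.2, 9.33, 16.7 and 9.285 CPM in control libraries and 9.20, 8.41, 6.85 and 8.02 CPM in knockout libraries. Its groups were separated only by the narrow gap between knockout replicate 1 and control replicate 4. Control replicate 3 was far above the other controls, and the log2 fold change of -0.49 (SE 0.20) became -0.24 without it. The ratio of Thra to Thrb counts was 3.88 ± 1.11 in control and 4.14 ± 0.542 in knockout libraries (SD, n = 4 each). It thus differed between the groups by less than the spread between libraries. Control replicate 3 had a ratio of 2.37, against 3.78 to 4.915 in the other controls. Counts by gene do not separate splice forms, so the ratio does not measure the balance between receptor proteins.

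Thra lies tail to tail with Nr1d1 on the opposite strand. Nr1d1 encodes REV-ERBα, a heme-binding repressor of the circadian clock that, like the unliganded thyroid hormone receptors, works through NCoR1. The exons of the pair share 263 bases in GENCODE M21 (chr11:98768157-98768419), 5.7% of the exonic bases of Thra and 8.55% of those of Nr1d1. Nr1d1 was at 43.0, 42.1, 36.8 and 45.2 CPM in control replicates 1 to 4 and at 159, 159, 96.1 and 112 CPM in knockout replicates 1 to 4. It rose in the knockout 3.145-fold (log2 1.65, SE 0.16, edgeR adjusted p = 0.001185), in the direction opposite to Thra. The ratio of Nr1d1 to Thra counts went from 1.01 ± 0.0785 to 3.96 ± 0.959 (SD, n = 4 each). Strand use in the counting is not given in the sources used here. Reads from the shared bases therefore cannot be assigned to either gene with certainty. Smaller exonic overlaps with genes on the other strand were annotated for Dio2 (Gm26512, 100 bases, not analysed here) and Ncor1 (Pigl, 82 bases, and Ttc19, 1 base). Pigl averaged 4.61 ± 0.280 CPM in control and 3.89 ± 0.724 CPM in knockout libraries (SD, n = 4 each), far below Ncor1.

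Slc16a10 (chr10:40033532-40142258) encodes MCT10, which carries aromatic amino acids and thyroid hormone across the plasma membrane. Its level was 27.0, 18.8, 21.8 and 23.9 CPM in control replicates 1 to 4 and 16.1, 21.2, 20.8 and 17.7 CPM in knockout replicates 1 to 4. The groups overlapped, since control replicate 2 was below 2 of the knockouts (log2 fold change -0.27, SE 0.14). Ncor1 (chr11:62316426-62458541) encodes the scaffold that brings histone deacetylase 3 to unliganded nuclear receptors. Its level was 227, 229, 248 and 236 CPM in control libraries and 251, 275, 206 and 278 CPM in knockout libraries. Knockout replicate 3 was below all controls and the other 3 knockouts above them (log2 fold change 0.10, SE 0.11). With library totals only, its log2 fold change was -0.01.

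Of the 5 genes that passed the filter, 2 were called lower and 0 higher at an adjusted p under 0.05, where 4.54% of all tested genes were called lower and 4.33% higher. The 2 were Dio2 and Thra. Of the 5, 3 (Dio2, Thra and Thrb) had all knockout libraries below all controls, against 9% of tested genes. Nothing is read from these counts, because the genes were chosen with this comparison known. The median log2 fold change of the 5 was -0.32, and that of all tested genes was -0.02. Dio2 was called in all 17 alternative analyses, with log2 fold changes of -2.07 to -1.45. Thra was called in 6 of the 17, and its log2 fold change of -0.42 to -0.26 kept its sign in all of them. It was not called in 7 of the 8 analyses with 1 library removed: without control replicates 2, 3 or 4, or any 1 of the knockouts. Thrb and Slc16a10 were lower in all 17 and called in none. The alternatives refit the same libraries, for genes chosen with this comparison known. Their calls are therefore also a description and add no support.

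**Figure D2:**
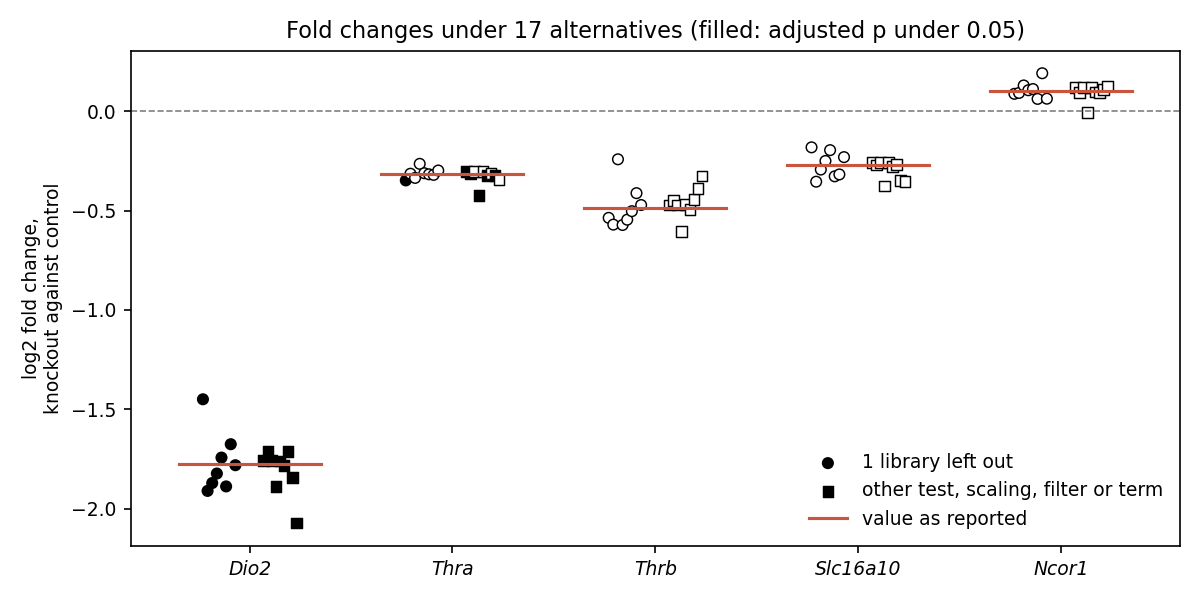
Log2 fold change (knockout against control) of each thyroid hormone gene under 17 alternatives: circles leave out 1 library, squares change the test, scaling, filter or model terms, and red lines are the reported values. Filled symbols have an adjusted p under 0.05. Dio2 stays between -2.07 and -1.45 and filled throughout, while Thra is filled in 6 of 17. The genes were chosen with this comparison known, so the filled symbols are a description only.

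Levels can be compared between genes only per length, here as CPM per kilobase of the GENCODE exons of each gene, which may differ from the models the authors counted on. On that scale, controls were ordered Dio2 at 25.7 ± 10.55, Ncor1 at 18.3 ± 0.717, Thra at 8.955 ± 0.676, Slc16a10 at 3.11 ± 0.469 and Thrb at 1.54 ± 0.484 (SD, n = 4). The spread of Dio2 over controls reached the level of Ncor1, so those neighbours were not separated. In knockouts the order was Ncor1 at 19.7 ± 2.60, Dio2 at 7.499 ± 1.37, Thra at 7.19 ± 0.0960, Slc16a10 at 2.58 ± 0.332 and Thrb at 1.10 ± 0.132 (SD, n = 4), with Dio2 and Thra not separated beyond their spread. Dio2 thus went from the level of an abundant corepressor to that of Thra.

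With each genotype's mean removed, log2 CPM over the 8 libraries gave a Pearson r of 0.64 between Dio2 and Slc16a10, of -0.41 between Dio2 and Thra and of -0.05 between Dio2 and Thrb. The receptors had an r of -0.44 with each other. With the genotype difference left in, the r of Dio2 with Slc16a10, Thra and Thrb was 0.75, 0.79 and 0.57, and that of the receptors was 0.45. All are descriptions of 8 libraries, in which depth and composition act on every gene. Among 10006 genes with a mean of at least 5 CPM, those most like Dio2 over the 8 libraries were Col7a1, the collagen of anchoring fibrils (r = 0.98), the Mediator kinase Cdk8 (r = 0.98) and the amino acid transporter Slc7a6 (r = 0.98). With genotype means removed they were Gab1, an adaptor of receptor tyrosine kinases (r = 0.98), Fam83c (r = 0.97) and Tbc1d12 (r = 0.96), none of which was in the first set. For Thrb, Zbed4 came first on both measures (r = 0.98 and 0.98), and Man2b1, a lysosomal mannosidase, was among the first 3 on both.

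The other genes of the pathway were taken from lists by role, 106 symbols present in the files, of which 69 were tested. Of these, edgeR called 4 higher and 3 lower at an adjusted p under 0.05, or 10.1%, against 8.87% of all tested genes in either direction, and 62 did not pass. Their median log2 fold change was 0.01. The share is close to that of all genes. The members called lower were a transporter, a coactivator and a deacetylase, and those called higher were all on the list of hormone-responsive genes.

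**Figure D3:**
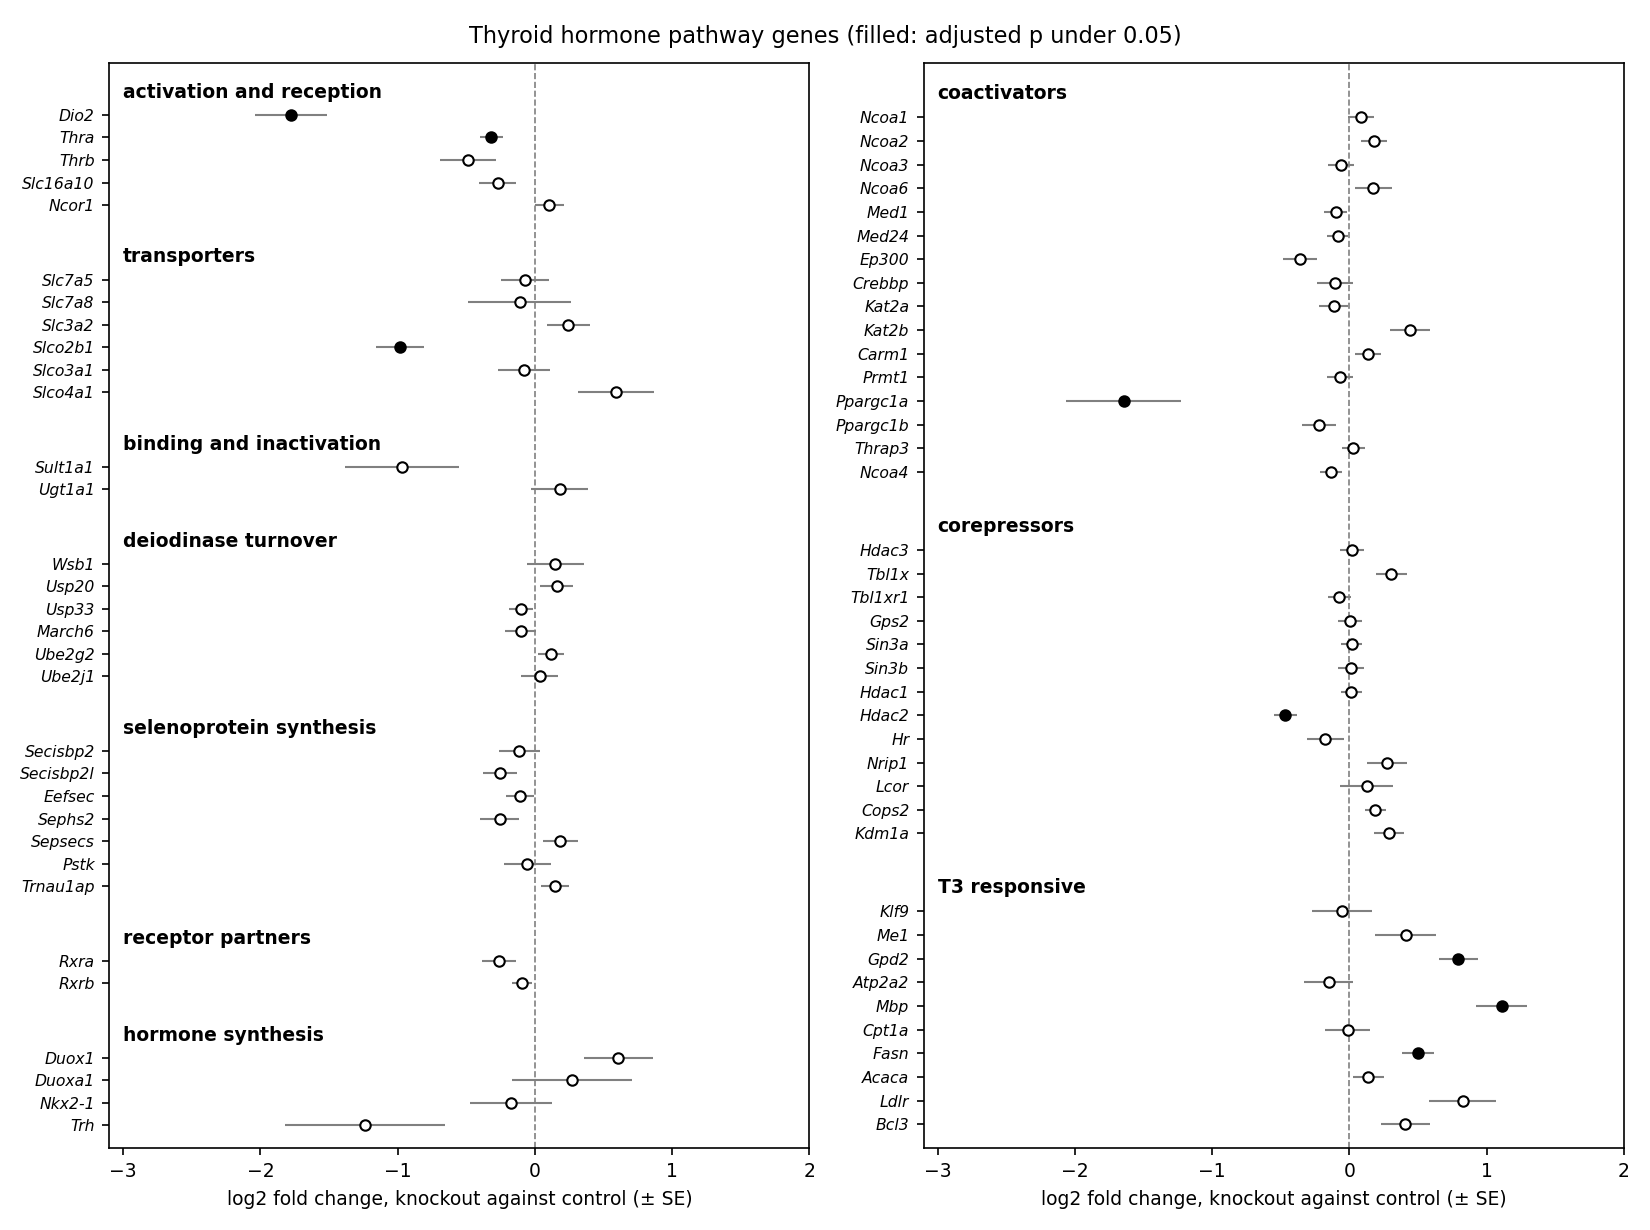
Log2 fold change (knockout against control, ± SE) of the tested thyroid hormone genes and of other tested pathway genes grouped by role; filled points have an edgeR adjusted p under 0.05. Dio2 at -1.77, Ppargc1a at -1.64 and Slco2b1 at -0.98 lie far to the left and are filled, Trh at -1.24 and Sult1a1 at -0.97 lie there unfilled, and most selenoprotein, turnover and corepressor genes lie near 0.

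Among 7 tested transporters 1 fell (14.3%) and 6 did not pass, where 4.54% of all tested genes were called lower. Slco2b1, an organic anion transporter (OATP2B1), was at 38.0, 40.0, 22.7 and 37.6 CPM in control replicates 1 to 4 and 15.4, 20.5, 16.5 and 17.6 CPM in knockout replicates 1 to 4. All knockouts were below all controls, though control replicate 3 came close to them. The mean fell 1.975-fold (log2 -0.98, SE 0.17, edgeR adjusted p = 0.009331), and the call held in all 17 alternatives. The 9 transporters that were not tested had means of at most 0.137 CPM.

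Genes that make or remove deiodinase protein showed no call, where edgeR called 8.87% of all tested genes in either direction. With so few genes, no call is close to that share. None of 6 tested genes of deiodinase ubiquitination and turnover passed edgeR's test, and 0 had an unadjusted p under 0.05. Wsb1, the ubiquitin ligase adaptor that targets the Dio2 protein, averaged 196.5 ± 55.5 CPM in control and 218 ± 40.35 CPM in knockout libraries, and the ligase March6 at 88.9 ± 6.27 and 82.9 ± 12.9 CPM (SD, n = 4 each). None of 7 tested selenoprotein synthesis genes passed either, again with 0 at an unadjusted p under 0.05. Secisbp2l was at 63.6 ± 7.76 and 53.3 ± 8.715 CPM, and Eefsec, the elongation factor that delivers selenocysteine, at 24.5 ± 1.855 and 22.7 ± 2.02 CPM (SD, n = 4 each). DESeq2 and limma-voom called none of these genes either.

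Of the 2 tested retinoid X receptors, neither passed edgeR's test, DESeq2 or limma-voom, and 0 had an unadjusted p under 0.05. With 8.87% of all tested genes called by edgeR in either direction, no call among 2 is close to that share. Rxra averaged 390.3 ± 41.2 CPM in control and 325 ± 46.85 CPM in knockout libraries, and Rxrb at 69.4 ± 3.795 and 65.0 ± 2.58 CPM (SD, n = 4 each). Among 16 tested coactivators 1 fell (6.25%, against 4.54% of all tested genes called lower) and 15 did not pass. Their median log2 fold change was -0.08. Ppargc1a, the coactivator PGC-1α of mitochondrial biogenesis, was at 1.79, 1.05, 0.647 and 1.05 CPM in control replicates 1 to 4 and 0.179, 0.589, 0.259 and 0.410 CPM in knockout replicates 1 to 4. The groups did not overlap, but the level was low and the call (log2 -1.64, SE 0.42, edgeR adjusted p = 0.03632) was lost on leaving out any of 6 of the 8 libraries in turn, with adjusted p up to 0.08553. Those fits were without control replicates 1, 2 or 4 or without knockout replicates 1, 3 or 4. It was also lost with the replicate block (adjusted p = 0.07074) and in the 5 libraries lacking Y-linked transcripts (log2 -1.75, adjusted p = 0.07077). With all libraries and a term for Y-linked transcripts it was called (edgeR adjusted p = 0.018).

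Among 14 tested corepressors besides Ncor1, Hdac2 fell (7.14%, against 4.54% of all tested genes called lower) and 13 did not pass. Their median log2 fold change was 0.02. Hdac2, a histone deacetylase of several repressor complexes, was at 88.6, 94.0, 94.4 and 97.3 CPM in control replicates 1 to 4 and 60.8, 66.3, 68.3 and 75.4 CPM in knockout replicates 1 to 4. The groups were well apart, and 72.4% of the control level remained (log2 -0.47, SE 0.08, edgeR adjusted p = 0.01008). It lost its call when only the 5 libraries lacking Y-linked transcripts were used (log2 -0.41, adjusted p = 0.1013). With all libraries and a term for Y-linked transcripts it was called (edgeR adjusted p = 0.01245). Hr, a corepressor of thyroid hormone receptors that is also a hormone-responsive gene and is given outside the naming rule, averaged 672 ± 116 CPM in control and 595.5 ± 61.2 CPM in knockout libraries (SD, n = 4 each).

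Of 20 hormone-responsive genes known from various tissues, 11 were tested, 4 rose, 0 fell and 7 did not pass. The called share was 36.4%, where 4.33% of all tested genes were called higher and 8.87% in either direction. The list was chosen with results of these data known, so the share is a description. Their median log2 fold change was 0.41. Mbp, best known as myelin basic protein, went from 40.5 ± 9.785 to 87.5 ± 14.0 CPM (log2 1.11, SE 0.19, edgeR adjusted p = 0.008699). Gpd2, the mitochondrial glycerol phosphate dehydrogenase, went from 40.4 ± 3.04 to 70.15 ± 15.45 CPM (log2 0.80, SE 0.14, edgeR adjusted p = 0.009733). Fasn, fatty acid synthase, went from 281 ± 19.7 to 398 ± 60.7 CPM (SD, n = 4 each; log2 0.50, SE 0.12, edgeR adjusted p = 0.02665). In these 3 the knockout libraries lay above every control. Mbp and Gpd2 were called in all 8 fits that left out 1 library. Fasn lost its call without control replicates 2, 3 or 4 or knockout replicate 4 (adjusted p up to 0.05796). In the 5 libraries lacking Y-linked transcripts, Mbp (log2 1.18, adjusted p = 0.09232) and Fasn (log2 0.37, adjusted p = 0.1685) were not called. Both kept their calls with all libraries and a term for Y-linked transcripts. Klf9, a transcription factor induced directly by the receptors in many tissues and given outside the naming rule, averaged 112 ± 24.5 CPM in control and 108 ± 29.7 CPM in knockout libraries (SD, n = 4 each). Thrsp, the lipogenic gene named for its response to the hormone, had at most 0.0319 CPM in any library.

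**Figure D4:**
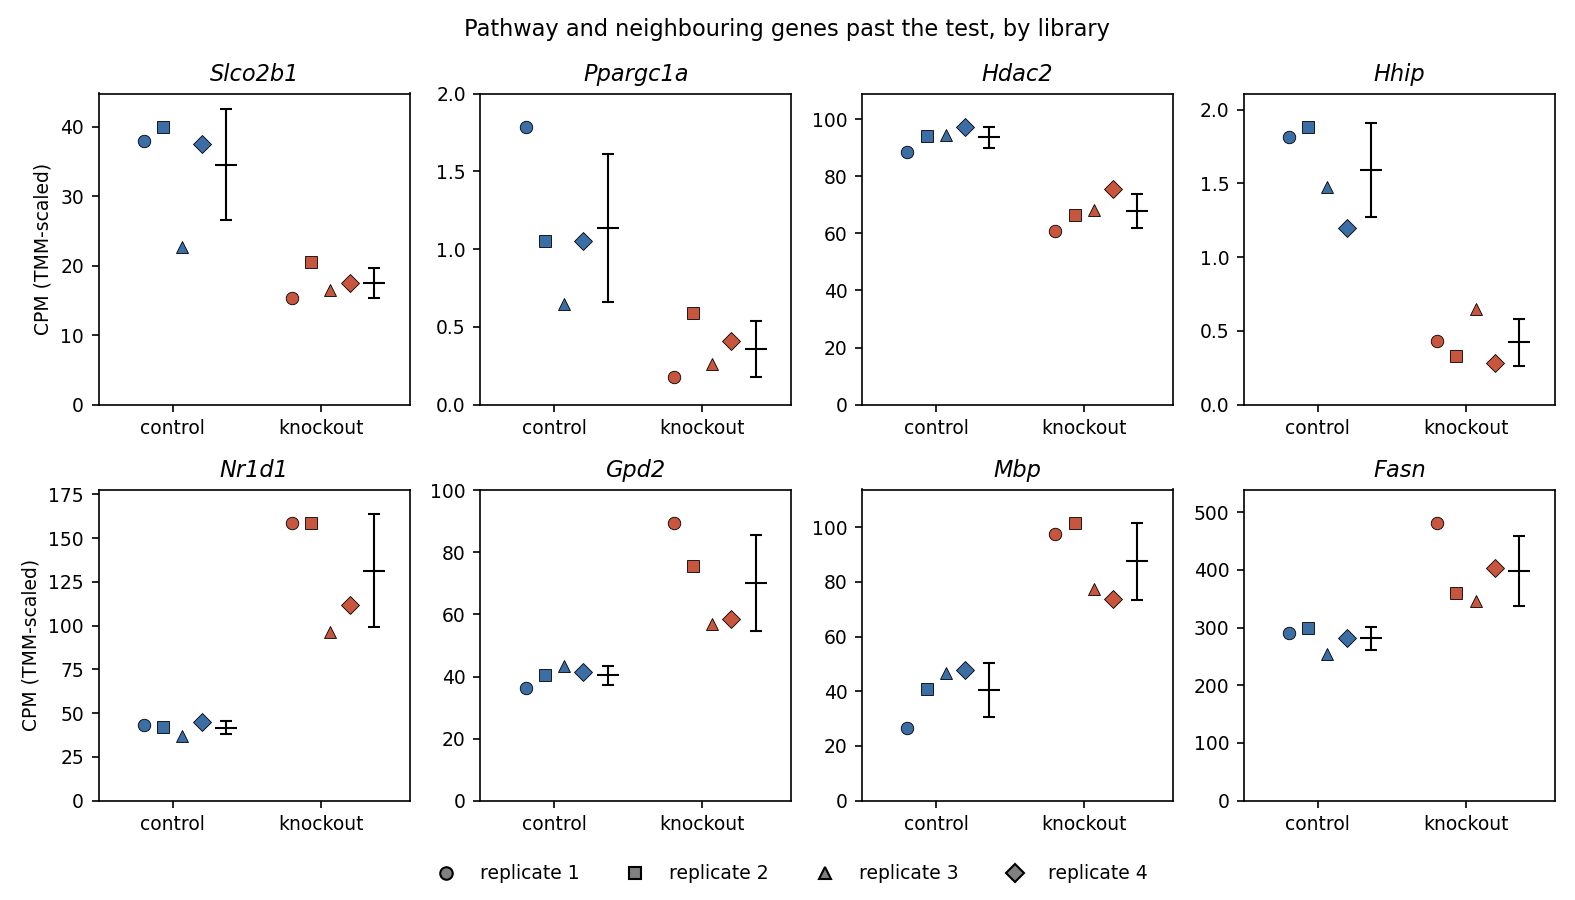
CPM (TMM-scaled, linear axes from 0) of 6 pathway genes past the test and of Nr1d1 and Hhip, by genotype; symbols mark replicates and bars the mean ± SD (n = 4). In each panel the control and knockout libraries do not overlap. The panels were picked from called genes, and the groups do not overlap in 17% of all tested genes. Slco2b1, Ppargc1a, Hdac2 and Hhip are lower in knockouts and the other 4 higher.

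The remaining roles gave no call with edgeR, DESeq2 or limma-voom. They held few tested genes, and edgeR called 8.87% of all tested genes in either direction, so no call is close to that share. Of the 7 genes of hormone binding and inactivation in the files 2 were tested, and neither passed edgeR's test, with 1 at an unadjusted p under 0.05. Ugt1a1, a glucuronosyltransferase, averaged 3.45 ± 0.722 CPM in control and 3.91 ± 0.725 CPM in knockout libraries, and the sulfotransferase Sult1a1 at 0.375 ± 0.0943 and 0.188 ± 0.0978 CPM (SD, n = 4 each). Of the 17 genes of hormone synthesis and its control 4 were tested, and none passed edgeR's test, with 1 at an unadjusted p under 0.05. Duox1, a dual oxidase that skin also uses, averaged 25.4 ± 5.65 CPM in control and 38.7 ± 13.1 CPM in knockout libraries, and its partner Duoxa1 at 8.89 ± 2.38 and 10.7 ± 6.97 CPM (SD, n = 4 each). The 13 untested genes, among them the thyroid-stimulating hormone receptor Tshr, had means of at most 0.285 CPM.

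In bulk samples, fewer cells of a type and less RNA per cell cannot be told apart, and deiodinases are also made by other cells of skin. Summed levels of 11 fibroblast markers were 188 to 259 CPM in control libraries and 253 to 365 CPM in knockout libraries. Most of that was Thy1, and without it the sums were 15.3 to 21.3 and 5.775 to 28.6 CPM. Of those markers 5 were under 1 CPM in every library, and Dcn was called higher. For 8 dermal papilla markers the sums were 3.50 to 7.92 CPM in control libraries and 2.61 to 4.82 CPM in knockout libraries, led by Wif1 and Rspo3. For 7 endothelial markers, led by Vwf and Pecam1, they were 0.926 to 4.34 and 0.442 to 2.26 CPM. The 8 melanocyte markers summed to 17 to 19.4 CPM in control libraries and 12.6 to 14.35 CPM in knockout libraries, without overlap. That gap came from Mitf, the most abundant of them. Without it the sums were 6.53 to 7.40 CPM in control and 6.155 to 7.69 CPM in knockout libraries, and overlapped. Of the melanocyte markers, Mitf and Kit were called lower, while Pmel was at 3.05 CPM in control libraries and 3.28 CPM in knockout libraries. The 8 muscle markers summed to 2.49 to 3.12 and 3.65 to 5.59 CPM, with Acta2 called higher and Des at 0 in all libraries. Without Acta2 the muscle sums were 1.37 to 1.87 CPM in control and 1.11 to 1.64 CPM in knockout libraries, and overlapped. Sums for 8 myeloid (4.06 to 22.0 and 4.04 to 14.0 CPM), 7 Langerhans cell (236 to 326 and 233 to 423 CPM, mostly Epcam), 5 T cell (0.926 to 1.81 and 0.787 to 1.16 CPM), 6 Schwann cell (1.255 to 2.04 and 0.982 to 1.325 CPM) and 6 sebocyte markers (189.6 to 427.5 and 258 to 335 CPM, mostly Scd1) overlapped between controls and knockouts. The part of these cells in the difference in Dio2 was not tested.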

How the data were processed

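The authors deposited, for each of the 8 libraries, a table of raw read counts by gene symbol. The submitters' processing notes name TopHat2 2.1.0, FastQC 0.11.4, SAMtools 0.1.18, Trimmomatic 0.35 and the build mm10. Which program counted the reads, on which annotation and whether by strand, is not given in the sources used here. Reads outside genes (15.7 to 21.75%) and ambiguous reads (0.918 to 1.11%) entered neither the library sizes nor any test. Files were matched to replicates through the sample records. No 2 libraries of the same group agreed within sampling noise.

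Genes were filtered with filterByExpr by group (13016 kept), scaled by TMM and tested with edgeR 4.0.16 (quasi-likelihood, robust, genotype only; R 4.3.3), with Benjamini-Hochberg adjustment over all tested genes and a threshold of 0.05. Alternatives were DESeq2 1.42.0, limma-voom (limma 3.58.1), RLE scaling, library totals only, 2 other filters, the replicate number as a block, a term for Y-linked transcripts, the 5 libraries without them, and each library left out in turn. Steps were tested on simulated counts. Log2 CPM for correlations used a prior count of 2. Gene positions, exon lengths and coding sequences came from GENCODE M21 and promoters from RefSeq (GRCm38.p6), where 6 of the 7 genes had an entry.

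The 7 genes and all lists were chosen with earlier results of these data known. Genes named were the 7, Hmgb1, up to 4 called genes per list by smallest adjusted p, or the 2 with the highest mean where none was called, the 2 most abundant markers of each cell type and the 3 genes most like Dio2 and Thrb. Some genes that the rule or the lists include are not reported here, though the lists' counts and medians hold them.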

Additional observations from a re-analysis of the deposited data

Results flagged for a closer look

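Among 54 groups of 4 libraries examined, 6 had a library set apart from the other 3 by most of the group's range, and chance flags about 1 group in 20. Thrb was at 16.7 CPM in control replicate 3, against 9.285 to 10.2 CPM in the other controls. Slco2b1 was at 22.7 CPM in the same library, against 37.6 to 40.0 CPM. Control replicate 4 had Sult1a1 at 0.234 CPM (others 0.415 to 0.431 CPM), Eefsec at 27.2 CPM (others 23.2 to 23.9 CPM) and Duox1 at 16.96 CPM (others 27.4 to 28.6 CPM). Rxrb was at 68.9 CPM in knockout replicate 3, against 63.6 to 63.9 CPM in the other knockouts.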

How the results depend on the processing

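Against 1154 of all tested genes in the main analysis, DESeq2 called 2010, the replicate block 723 and the 5 libraries without Y-linked transcripts 383; leaving out 1 library gave 462 to 1247. The 2 thyroid hormone genes called became 1 with RLE scaling, no filter, the replicate block or in the 5 libraries without Y-linked transcripts. Leaving out 1 library gave 1 to 2. Where only 1 was called it was always Dio2, and these calls are a description only. The 7 other pathway genes called became 4 without Y-linked libraries and 4 to 8 leaving out 1 library (4 without control replicate 4); DESeq2 called 9 and limma-voom 7. Of 457 fold changes of 27 named genes under the alternatives, 425 kept direction and side of the threshold, 28 lost the call, and 4, all of genes not called, changed sign: Ncor1 (-0.0061 with library totals only), Wsb1 (-0.1575 in the 5 libraries, and -0.0128 to 0.3185 leaving out 1 library, below 0 without control replicate 3) and Duoxa1 (-0.2003 to 0.5089 leaving out 1 library, below 0 without knockout replicate 3). The cause was not tested. Deviations of same-numbered libraries had correlations of -0.30 to -0.06, and those of differently numbered libraries -0.24 to 0.45. These few overlapping values give no sign of pairing by number but cannot exclude it. Depth limits Dio1 and Dio3, which lie under 3 counts.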

Other observations

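Hedgehog signalling is known to raise Dio3 in keratinocytes, and 8 of its 10 listed genes were tested. Hhip, an inhibitor that binds hedgehog ligands at the cell surface, was at 1.81, 1.88, 1.48 and 1.20 CPM in control replicates 1 to 4 and 0.429, 0.327, 0.646 and 0.284 CPM in knockout replicates 1 to 4. It fell 3.78-fold (log2 -1.91, SE 0.31, edgeR adjusted p = 0.006804), and lost its call only when only the 5 libraries lacking Y-linked transcripts were used (log2 -1.84, adjusted p = 0.05974), of 17 alternatives. The level of Hhip was low, with at most 65 counts in any library. The other 7 tested genes did not pass. The called share of the 8 was thus 12.5%, where 4.54% of all tested genes were called lower and 8.87% in either direction. With so few genes, 1 call is close to that share. The ligand gene Shh was at or below 0.0631 CPM in every library. For the imprinted region that holds Dio3 and its flanks, 6 of 9 listed genes were too low to test, with means of at most 0.146 CPM. Dlk1 and Meg3 were among them. The 3 tested genes all lie outside the stretch from Dlk1 to Dio3, so no listed gene inside it could be tested. Of these 3, none passed edgeR's test, DESeq2 or limma-voom and 0 had an unadjusted p under 0.05. Among 3 genes, no call is also close to the 8.87% of all tested genes. Ppp2r5c averaged 154 ± 4.25 CPM in control and 169 ± 10.4 CPM in knockout libraries, and Begain at 4.77 ± 1.36 and 3.40 ± 0.455 CPM (SD, n = 4 each).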
